A study of Mus musculus with 6 samples.

Results

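The genes described here encode the subunits of the proteasome, its activators and inhibitor, and the chaperones that assemble it. They were chosen by name, as the protein-coding mouse genes whose symbol starts with Psm, a letter from a to g and a digit, which gave 51 of the 21887 protein-coding genes on the main chromosomes. By role they are 7 alpha ring and 7 beta ring genes of the core particle, 9 base and 8 lid genes of the regulatory particle, 7 assembly chaperones, 5 activators, 1 inhibitor, 3 immunoproteasome genes and 2 core genes of germ cells or thymus. The other two match by symbol alone: Psmc3ip encodes Hop2, a protein of meiotic recombination, and Psme3ip1 a protein that binds the PA28 gamma activator.

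H3K4me3, a histone mark found at the start sites of active and poised genes, was measured by chromatin immunoprecipitation and sequencing in Lgr5+ progenitor cells of the mouse cochlea, and the design compared neomycin with no treatment. Neomycin, an aminoglycoside antibiotic, is toxic to the sensory hair cells, and Lgr5+ cells are supporting cells that can give rise to hair cells in the newborn. Each group has 2 H3K4me3 libraries and 1 input library, and the inputs were not analysed here. The neomycin group had 12 h of treatment and the other group none. All animals were Lgr5-EGFP-creERT2 mice of the C57BL/6 strain and of either sex, from postnatal day 0 to 3. In both groups the cochleae were cultured with B27, N2, IGF-1, heparin sulfate, bFGF and EGF before the cells were sorted on GFP, so the untreated cells are cultured cells too. The reporter follows the Lgr5 locus, and the sort therefore selects by GFP and not by a cell type as such. Whether replicate libraries stem from separate cultures is not stated in the labels, so the spread between libraries against which differences are read here may be technical.

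The proteasome is the protease complex that degrades proteins tagged with ubiquitin. Its core particle is a barrel of stacked alpha and beta rings: the alpha rings gate the channel, and 3 of the beta subunits carry the proteolytic sites inside it. The regulatory particle caps the barrel. Its base holds a ring of ATPases that unfold and thread the substrate, and its lid removes the ubiquitin chain. In cells exposed to interferon the catalytic beta subunits are exchanged for immunoproteasome subunits, which shape the peptides shown to T cells. Proteasome genes are known to be raised together when proteasome activity falls, through the transcription factor Nrf1, encoded by Nfe2l1.

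A promoter was called marked in a library when a peak in that library's list overlapped 1 kb either side of a start site. Where 4 values stand in a row, their order is neomycin replicate 1, neomycin replicate 2, untreated replicate 1, untreated replicate 2. Start sites came from RefSeq on GRCm38.p6, the assembly of mm10, for 43 of the 51 genes. The other 8, Psmb7, Psmc3, Psmb2, Psmd7, Psmd3, Psmb1, Psma8 and Psmg2, had no strand here, and the gene end with peaks in more libraries was used. To show what kind of sequence lies before these genes, the windows that end at the start sites of 3 of them are printed from RefSeq (GRCm38.p6): the alpha ring gene Psma1, marked in all 4 libraries, chr7:114276117-114276366 on the minus strand; the catalytic beta ring gene Psmb5, marked in none, chr14:54617996-54618245 on the minus strand; and the base gene Psmd4, marked in the neomycin libraries alone, chr3:95042615-95042864 on the minus strand. Capitals mark, on either strand, the letters CCAAT (the NF-Y box), GGGCGG (the GC box), CACGTG (the E box), TGANNNNGC (the antioxidant response element core bound by Nrf1 and Nrf2) and the nuclear respiratory factor motif, whose counts are given with the promoter sequences.
Psma1: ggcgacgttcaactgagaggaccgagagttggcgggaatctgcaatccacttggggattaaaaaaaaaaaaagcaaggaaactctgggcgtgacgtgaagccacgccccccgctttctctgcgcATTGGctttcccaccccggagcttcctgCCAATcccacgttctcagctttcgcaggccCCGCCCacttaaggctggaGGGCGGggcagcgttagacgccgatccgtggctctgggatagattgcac
Psmb5: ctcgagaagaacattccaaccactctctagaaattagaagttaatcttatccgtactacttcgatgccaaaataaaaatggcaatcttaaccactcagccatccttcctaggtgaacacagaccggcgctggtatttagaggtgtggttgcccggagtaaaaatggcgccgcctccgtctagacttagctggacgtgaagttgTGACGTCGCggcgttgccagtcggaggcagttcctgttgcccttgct
Psmd4: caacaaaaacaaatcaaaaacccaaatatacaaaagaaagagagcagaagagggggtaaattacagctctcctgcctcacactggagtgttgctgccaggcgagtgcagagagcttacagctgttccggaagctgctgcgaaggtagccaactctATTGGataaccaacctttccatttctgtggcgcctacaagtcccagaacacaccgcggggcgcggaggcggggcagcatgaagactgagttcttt

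The lists held 14203, 11545, 15938 and 10520 peaks, and since they carry no read numbers the depth is not known. The shortest peak was 48 and 110 bp in the neomycin lists and 187 and 234 bp in the untreated lists, so the length floor moves with the group and its part in any length or presence result was not tested. In the names under which the untreated lists were deposited the mark is H3K4me2, whereas their labels name H3K4me3 and the same antibody as the neomycin libraries. The labels were used, which leaves some doubt on the mark in those lists. Of 10 supporting and progenitor cell markers, 9 were marked in all 4 libraries, among them Lgr5, and the other, Sox2, in all but neomycin replicate 1. Of 8 macrophage and blood markers, none was marked in any library. Hair cell markers were marked at 2 and 1 of 8 genes in the neomycin lists and at 6 and 1 in the untreated lists, and mesenchyme markers at 0 and 0 of 8 against 3 and 4. The last of these moves with the group, and its part in the results was not tested.

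Proteasome promoters were marked more often than those of other genes in each of the 4 libraries. Peaks lay at 35 of the 51 genes (68.6%) in neomycin replicate 1, where 34.8% of all protein-coding genes were marked. Neomycin replicate 2 also marked 35 (68.6%), beside 33.6% of all genes. Untreated replicate 1 marked 43 (84.3%), beside 47.0%, and untreated replicate 2 marked 29 (56.9%), beside 36.3%. At least 1 library marked 46 of the 51 genes (55.0% of all genes), at least 3 libraries marked 34 (34.0%), and all 4 libraries marked 21, or 41.2%, beside 16.6% of all genes and 30.2% of the genes marked at all. Without Psmc3ip and Psme3ip1, 20 of 49 genes were marked in all 4. A bulk list cannot tell fewer cells with the mark from less of it in each cell.

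The presence of a peak at these genes varied between replicates of 1 group. The 2 neomycin libraries disagreed at 14 of the 51 genes (27.5%), beside 21.9% of all genes, and the 2 untreated libraries also at 14 (27.5%), beside 16.6%. In these shares a gene without a peak in either library counts as agreement, and 45.0% of all genes had no peak in any library. Among genes marked in either neomycin library, 14 of 42 proteasome genes disagreed, beside 4783 of 9879 genes in all. For the untreated pair it was 14 of 43, beside 3636 of 10936. The 4 pairs made of 1 library from each group disagreed at 12 to 16 of the 51 (23.5% to 31.4%), beside 21.3% to 22.8% of all genes. Over all genes the untreated pair thus differed least, while at the proteasome genes its count lay within the range of the pairs across groups. Of the 13 genes marked in exactly 3 libraries, 6 lacked a peak in untreated replicate 2, which holds the fewest peaks; among all 3793 genes marked in exactly 3 libraries that share was 26.0%. The 1 kb limit decided 1 value among these genes: the nearest peak to Psmb10 in neomycin replicate 1 lay 1.20 kb away. Among marked genes, the largest distance to the nearest peak was 0.801 kb, at Psmd1 in the same library.

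**Figure D1:**
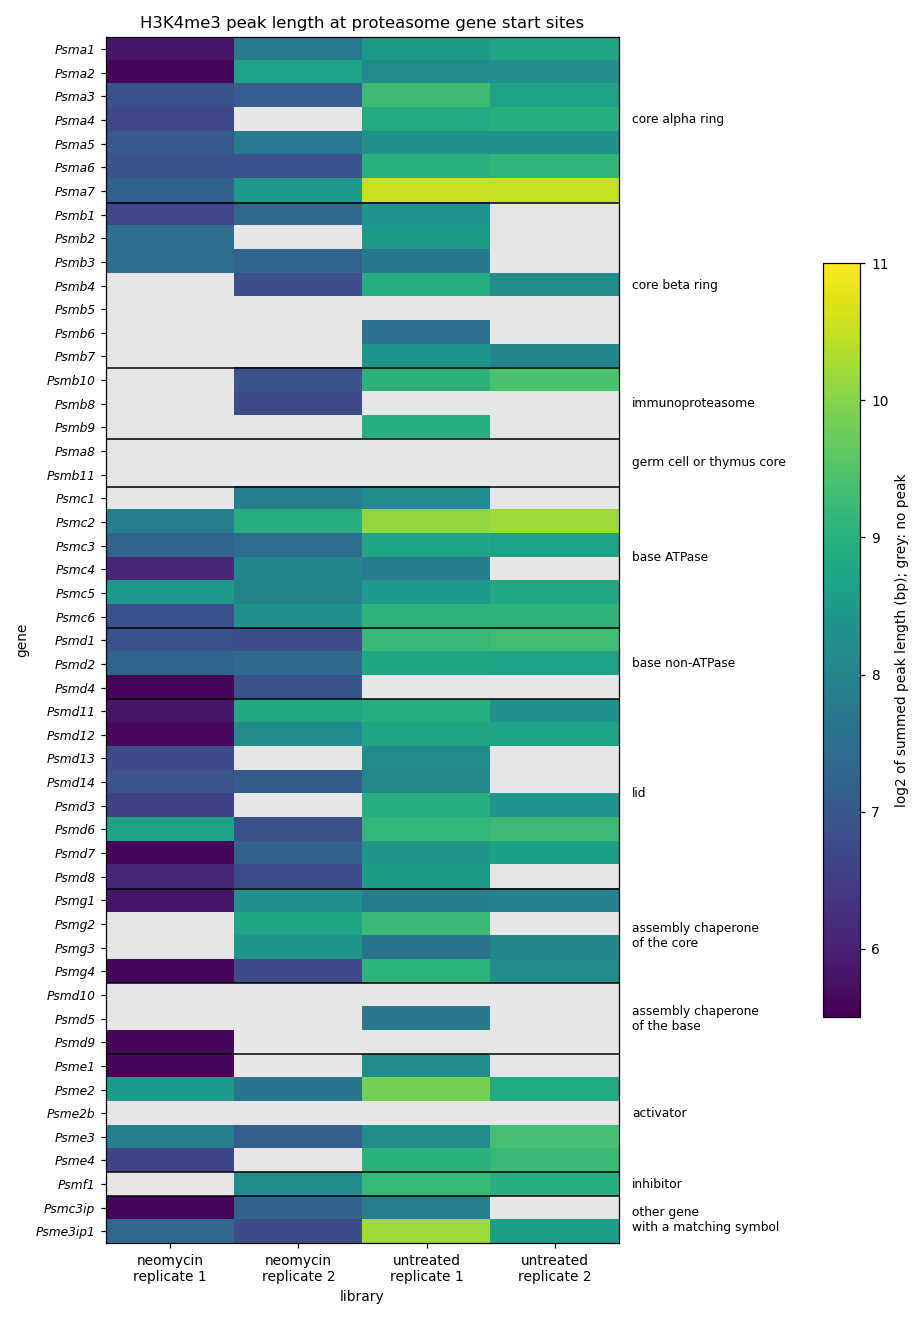
Log2 of the summed length in bp of the peaks at the start site of each of the 51 genes (rows, grouped by role) in each of the 4 libraries (columns), with grey for no peak. Alpha ring rows are filled in all columns except 1 cell, beta ring rows have grey cells in every row, and neomycin replicate 1 has the shortest peaks.

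The alpha ring was the most fully marked group of the core. Of its 7 genes, 6 had a peak in all 4 libraries (16.6% of all genes did): Psma1, Psma2, Psma3, Psma5, Psma6 and Psma7, which encode alpha 6, alpha 2, alpha 7, alpha 5, alpha 1 and alpha 4. Psma4, which encodes alpha 3, lacked a peak in neomycin replicate 2 alone. Its summed peak length, the bp covered by the peaks that touch the window, was 102 bp in neomycin replicate 1, 466 bp in untreated replicate 1 and 493 bp in untreated replicate 2. Summed length ran from 48 bp at Psma2 to 147 bp at Psma7 in neomycin replicate 1, and from 301 bp at Psma2 to 1503 bp at Psma7 in untreated replicate 1. Mrpl32 starts 205 bp from Psma2 on the opposite strand. The strongest Psma2 peak in neomycin replicate 2, from −411 to −277 bp, cannot be assigned to either gene. Psma6 has 2 RefSeq start sites, and all of its 6 peaks lay at the downstream one, chromosome 12 position 55398825, with none at position 55384222.

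Psma7 had the highest mean length over the 4 libraries of all 51 genes (874.5 bp), a rank that the untreated libraries set. Its summed length was 147 and 355 bp in the neomycin libraries and 1503 and 1493 bp in the untreated ones. In neomycin replicate 1 Psmd6 (408 bp), Psme2, Psmc5, Psme3, Psmc2, Psmb2, Psmb3, Psme3ip1, Psmd2 and Psmc3 were longer. In neomycin replicate 2 Psmc2 (486 bp), Psmd11, Psmg2 and Psma2 were. The groups did not overlap at Psma7. That was so, with longer untreated peaks, at 17 of the 21 proteasome genes marked in all 4 libraries and at 79.9% of all genes so marked, so it is not particular to Psma7. Neomycin peaks were longer without overlap at 0 of the 21 (0.33% of all genes), and the groups overlapped at Psma2, Psmc5, Psmd11 and Psmg1. In each untreated library these bases fell in 2 peaks, 1 on either side of the start site at chromosome 2 position 180042464. In untreated replicate 1 the pair reached from −1018 to −82 bp and from 99 to 664 bp, counted from the start in the direction of transcription. The start of Ss18l1 lies 19 bp away on the opposite strand, so the upstream peak is downstream of that gene's start and cannot be assigned to either. Ranked by −log10 q within its own list, the strongest peak stood at percentiles 74.3 and 85.7 in the neomycin lists and 95.2 and 98.0 in the untreated lists.

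The beta ring, which carries the proteolytic sites, had no gene marked in all 4 libraries, where 16.6% of all genes were. Its 7 genes were marked 3, 3, 6 and 2 times in the 4 libraries, or 42.9%, 42.9%, 85.7% and 28.6%, beside 34.8%, 33.6%, 47.0% and 36.3% of all genes. All but the value of untreated replicate 1 are near the background. Psmb1 (beta 6) and Psmb3 (beta 3) lacked a peak in untreated replicate 2 alone, and Psmb4 (beta 7) in neomycin replicate 1 alone. Psmb2 (beta 4) had 179 bp in neomycin replicate 1 and 364 bp in untreated replicate 1, and no peak in the other libraries. With 1 library left out, 1 beta ring gene was marked in the remaining libraries without neomycin replicate 1 (22.2% of all genes), and 2 were without untreated replicate 2 (21.1%). Leaving out a library can only keep or raise such a count. The split into alpha and beta rings was described after the values were seen, and the difference between them was not tested.

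Among the 3 catalytic beta genes, a peak was found in none of the 4 libraries, in 1 and in 2. Psmb5, which encodes the chymotrypsin-like beta 5 site, had no peak within 1 kb in any library. Its nearest peaks lay 14.7 kb away in both neomycin lists and 14.6 and 40.4 kb away in the untreated lists. Psmb6 (beta 1) had a single peak of 187 bp, the shortest length in the list, in untreated replicate 1. Psmb7 (beta 2) had 335 and 261 bp in the untreated libraries and no peak in either neomycin library.

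**Figure D2:**
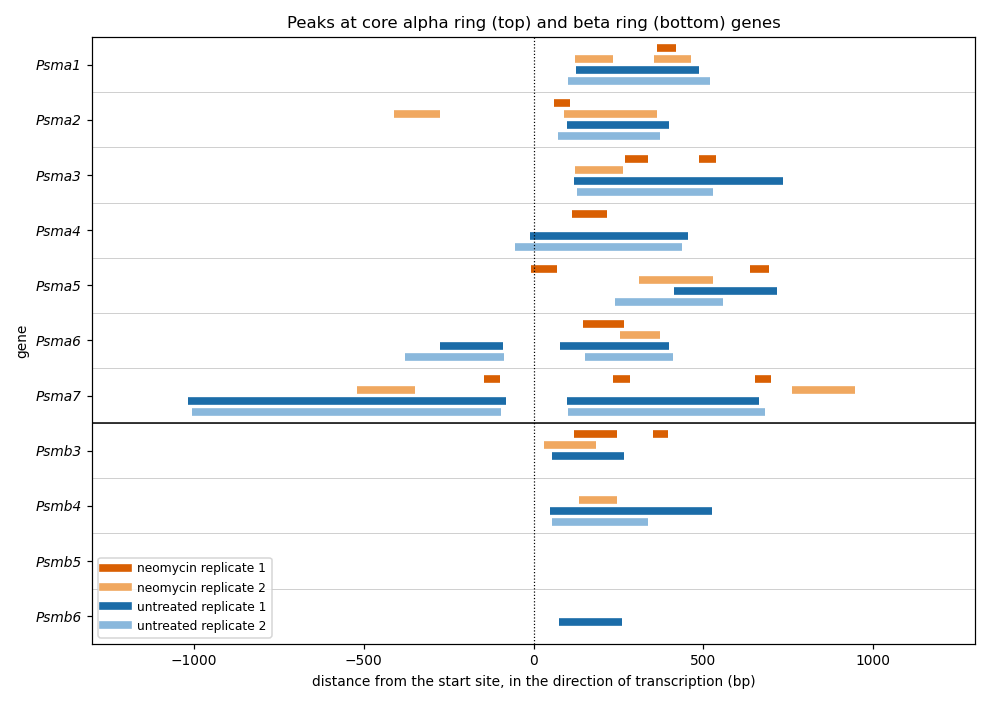
Each bar is 1 peak, drawn by its distance in bp from the start site in the direction of transcription, for the 7 alpha ring genes above the black line and the 4 beta ring genes with a known strand below it, in 4 rows per gene for the 4 libraries. Alpha ring peaks recur downstream of the start in nearly all rows, Psma7 has long untreated peaks on both sides of the start, and Psmb5 has none.

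The 9 base genes were marked in 8, 9, 8 and 6 cases in the 4 libraries, beside 34.8%, 33.6%, 47.0% and 36.3% of all genes. Beside 16.6% of all genes, 6 of the 9 were marked in all 4 libraries. Among the ATPases these were Psmc2 (Rpt1), Psmc3 (Rpt5), Psmc5 (Rpt6) and Psmc6 (Rpt4). Psmc1 (Rpt2) had 236 bp in neomycin replicate 2 and 283 bp in untreated replicate 1 alone, and Psmc4 (Rpt3) lacked a peak in untreated replicate 2. Psmd1 (Rpn2) and Psmd2 (Rpn1), the scaffolds that receive ubiquitin receptors and shuttle factors, were marked in all 4. Psmd1 had 118 and 112 bp in the neomycin libraries and 594 and 624 bp in the untreated ones, values that did not overlap, as at most genes.

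Psmc2 had the next highest mean length, 744.75 bp. The values were 230 and 486 bp in the neomycin libraries and 1097 and 1166 bp in the untreated ones. RefSeq gives it 2 start sites, at chromosome 5 positions 21785275 and 21786747, and each library had at least 1 peak at each. The annotation places an end of Dnajc2 just before the upstream site, with no strand given here. Psmc5 had a summed length of 353 and 254 bp in the neomycin libraries and of 353 and 451 bp in the untreated ones, so the groups met at 353 bp. Its strongest peak in neomycin replicate 2 stood at percentile 98.9 of that list. Ftsj3 starts 101 bp away on the opposite strand, and the peak of untreated replicate 2 lay wholly upstream of the Psmc5 start.

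Psmd4 was marked in both neomycin libraries and neither untreated library, and was the only one of the 51 genes with that pattern; 1.4% of all genes and 2.55% of genes marked at all had it. It encodes Rpn10, a ubiquitin receptor of the base. The peaks were short, 48 bp in neomycin replicate 1 and 121 bp in neomycin replicate 2, and lay 217 to 264 bp and 117 to 237 bp downstream of the start, so they overlapped in part. The peak of neomycin replicate 1 had the shortest length in its list and stood at percentile 27.3 by −log10 q, and that of neomycin replicate 2 at percentile 74.8. Both are shorter than any peak in the untreated lists, whose nearest peaks to the gene were 26.5 kb away. Psmb7 was the only gene with the opposite pattern, which 4.66% of all genes and 8.48% of marked genes had. Its untreated peaks stood at percentiles 67.7 and 1.65, the second with a −log10 q of 3.65, and the nearest neomycin peaks lay 76.9 and 281.9 kb away. These 2 counts are near or below the background shares. When each list was cut to the length of the shortest, the single gene marked in neomycin alone was Psmb1 in place of Psmd4. With 1 library left out, the neomycin count was 7 without untreated replicate 1 (5.91% of all genes), and 2 without neomycin replicate 1 (3.11%) or neomycin replicate 2 (3.29%). The untreated count was 5 without neomycin replicate 2 (10.3%), 4 without neomycin replicate 1 (11.1%) and 4 without untreated replicate 2 (8.72%). Leaving out a library can only keep or raise both counts. With 2 libraries a group, relabelling the libraries allows no p below 0.333, so presence was not tested.

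Lid genes were marked in 8, 6, 8 and 5 of 8 cases, beside 34.8%, 33.6%, 47.0% and 36.3% of all genes. Beside 16.6% of all genes, 4 of the 8 were marked in all libraries: Psmd6 (Rpn7), Psmd7 (Rpn8), Psmd11 (Rpn6) and Psmd12 (Rpn5). Psmd14 (Rpn11, the deubiquitinase that cuts the chain from the substrate) and Psmd8 (Rpn12) lacked a peak in untreated replicate 2 alone, and Psmd3 (Rpn3) in neomycin replicate 2 alone. Psmd13 (Rpn9) was marked in replicate 1 of each group, with 109 and 288 bp, and its start lies 85 bp from that of Sirt3, a mitochondrial deacetylase gene on the opposite strand. The untreated peak lay wholly upstream of the Psmd13 start, from −388 to −101 bp, as did 1 of the 2 neomycin peaks, from −149 to −102 bp. These upstream peaks cannot be assigned to either gene. Psmd6 had one of the 5 highest mean lengths, with 408 and 116 bp in the neomycin libraries and 568 and 622 bp in the untreated ones. Its neomycin replicates differed more from each other than neomycin replicate 1 did from either untreated library.

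**Figure D3:**
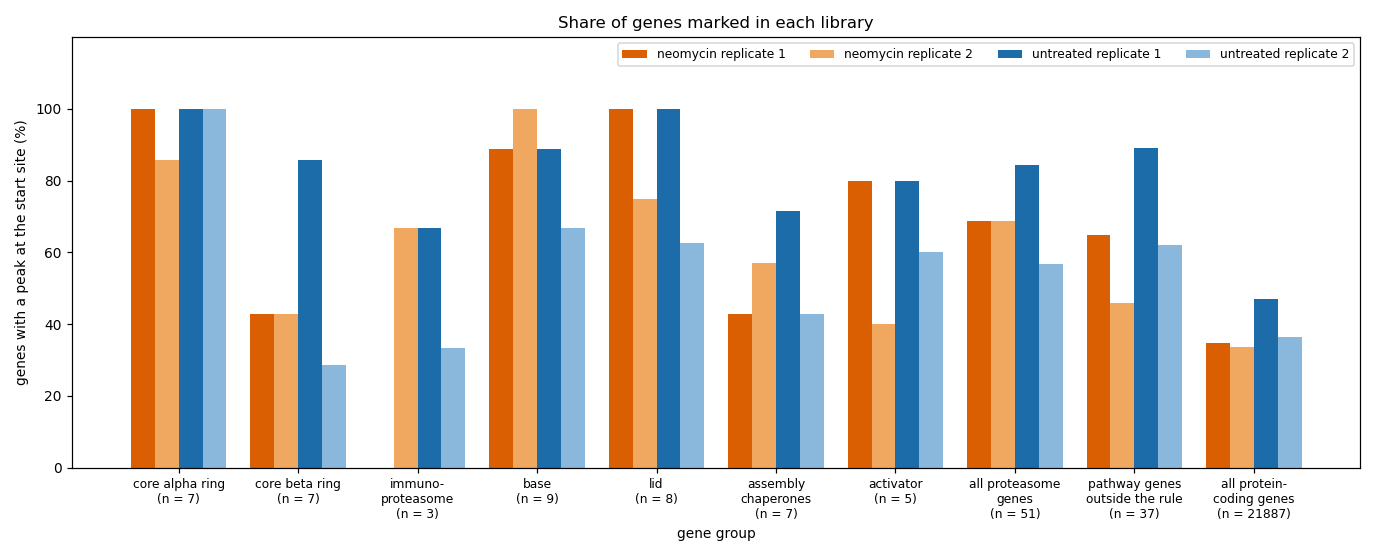
Percentage of genes with a peak at the start site (vertical axis) in each gene group (horizontal axis, with the number of genes), with 1 bar per library. Alpha ring bars reach 85.7% to 100%, beta ring bars 28.6% to 85.7%, and those of all protein-coding genes 33.6% to 47.0%.

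The 7 assembly chaperones were marked in 3, 4, 5 and 3 cases, beside 34.8%, 33.6%, 47.0% and 36.3% of all genes. In all 4 libraries 2 of the 7 were marked, beside 16.6% of all genes. The 4 chaperones of the core were marked in 2, 4, 4 and 3 cases. Psmg1 (PAC1) and Psmg4 (PAC4) had peaks in all 4 libraries, Psmg3 (PAC3) in all but neomycin replicate 1, and Psmg2 (PAC2) in neomycin replicate 2 and untreated replicate 1. The 3 chaperones of the base were marked in 1, 0, 1 and 0 cases, too few genes to set such counts apart from the shares of all genes. Psmd9 (p27) had a 48 bp peak in neomycin replicate 1, Psmd5 (S5b) a 207 bp peak in untreated replicate 1, and Psmd10 (gankyrin), which lies on the X chromosome, had no peak nearer than 291 kb.

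None of the 3 immunoproteasome genes had a promoter marked in all 4 libraries, where 16.6% of all genes did. With 3 genes, a count of 0 is near that share. Psmb8 (beta 5i) had 110 bp in neomycin replicate 2, the shortest length in that list, and no peak in the other libraries. That peak lay upstream, from −430 to −321 bp. Psmb9 (beta 1i) had 503 bp in untreated replicate 1 alone. Its 2 peaks were both upstream, and they also lie within 1 kb of the start of Tap1, the peptide transporter gene 226 bp away on the opposite strand, so they cannot be assigned to either gene. Psmb10 (beta 2i) had 120 bp in neomycin replicate 2 and 521 and 690 bp in untreated replicates 1 and 2, and no peak within 1 kb in neomycin replicate 1. These peaks began 501 bp or more inside the gene. Psma8, an alpha 4 variant of germ cells, and Psmb11, the beta 5t subunit of the thymus, had no peak in any library, and their nearest peaks were 21.0 to 22.9 kb and 15.8 to 47.7 kb away.

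Activators open the alpha ring gate without ubiquitin. Psme2 (PA28 beta) had 358 and 199 bp in the neomycin libraries and 924 and 468 bp in the untreated ones, and on the centred log2 scale used for the length test its difference, untreated minus neomycin, was −0.29. Rnf31 starts 641 bp away on the opposite strand. All Psme2 peaks of neomycin replicate 1 lay upstream, between −1025 and −195 bp from the start at position 55591021. In untreated replicate 1 the peaks of 228 and 509 bp lay upstream too, as did 1 of the 2 peaks of 234 bp in untreated replicate 2. These upstream peaks cannot be assigned to either gene. Psme3 (PA28 gamma, the nuclear activator) had 235 and 143 bp in the neomycin libraries and 295 and 656 bp in the untreated ones. Psme1 (PA28 alpha) had 48 bp in neomycin replicate 1 and 302 bp in untreated replicate 1, and no peak in replicate 2 of either group. Psme4 (PA200, a nuclear activator) had 100 bp in neomycin replicate 1, none in neomycin replicate 2, and 526 and 590 bp in the untreated libraries. Psme2b, a copy of Psme2, had no peak in any library, and reads shared between near-identical copies can go uncounted, so its value is uncertain. The inhibitor gene Psmf1 (PI31) had no peak in neomycin replicate 1, 289 bp in neomycin replicate 2, and 581 and 493 bp in the untreated libraries. Of the genes that match by symbol alone, Psme3ip1 had 160 and 110 bp in the neomycin libraries and 1179 and 381 bp in the untreated ones. Rspry1 starts 215 bp from Psme3ip1 on the opposite strand. Of the 1179 bp, 822 bp lie in a peak upstream of the Psme3ip1 start, which cannot be assigned to either gene. Psmc3ip had 48 and 148 bp in the neomycin libraries and 234 bp in untreated replicate 1.

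None of the 21 genes marked in all 4 libraries changed in length beyond the test's threshold. Summed lengths were put on the log2 scale, shifted so that every library had a median of 0, and tested with limma across the 3638 genes marked in all 4 libraries. Benjamini-Hochberg adjusted p was at most 0.05 for 0 genes (0.0%) in either direction, and 353 genes (9.7%) had an unadjusted p under 0.05, none of them a proteasome gene. The median difference, untreated minus neomycin, was −0.12 over the 21 proteasome genes and 0.01 over all 3638, and 10 of the 21 were above 0. In simulated data of 3638 genes the same fit called 45% of genes changed by a log2 of 2, so changes of the size seen here could be missed.

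Psma7 had the largest difference toward untreated, 1.12 ± 0.60 (SE, n = 2 libraries per group; limma adjusted p = 0.551), and stayed between 0.91 and 1.28 with any 1 library left out. It was followed by Psmg4 at 0.83 (48 and 110 bp in the neomycin libraries, 529 and 286 bp in the untreated ones), Psmd1 at 0.82, Psme3ip1 at 0.75 and Psma6 at 0.56 (121 and 118 bp, then 510 and 553 bp). Without neomycin replicate 2, Psmd1 was at 0.30, Psma6 at 0.069 and Psme3ip1 at 0.0021, and Psme3ip1 was at 0.089 without untreated replicate 1. The size of these differences thus depended on which libraries were kept, though none fell below 0 with any 1 library left out. Toward neomycin the largest was that of Psmc5, −1.17 ± 0.63 (SE, n = 2 libraries per group; limma adjusted p = 0.553), then Psmg1 at −0.75 (56 and 311 bp in the neomycin libraries, 229 and 243 bp in the untreated ones), Psma5 at −0.72 (134 and 219 bp, then 306 and 318 bp), Psma2 at −0.48 (48 and 409 bp, then 301 and 303 bp) and Psme3 at −0.33. Leaving out 1 library turned the sign of 3 of these: Psmg1 was at 0.010 and Psma2 at 0.59 without neomycin replicate 2, and Psme3 at 0.46 without neomycin replicate 1 and at 0.41 without untreated replicate 1. The Psmc5 difference was −1.89 without neomycin replicate 2 (limma adjusted p = 0.0289, 3.4% of all genes called longer in neomycin) and −0.51 without neomycin replicate 1 (limma adjusted p = 0.684). In these fits the neomycin arm is 1 library, assumed to vary like the untreated pair. Without either untreated library Psmc5 was at −0.84 or −1.40, with limma adjusted p of 0.999 and 0.998. Without centring, all 21 genes and 98.7% of all genes had longer peaks in the untreated libraries, and 7 of the 21 (Psma3, Psma6, Psma7, Psmd1, Psmd7, Psme3ip1 and Psmg4) passed, as did 31.5% of all genes. The library medians that the centring removes were 125 and 236 bp in the neomycin libraries and 570 and 468 bp in the untreated ones.

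**Figure D4:**
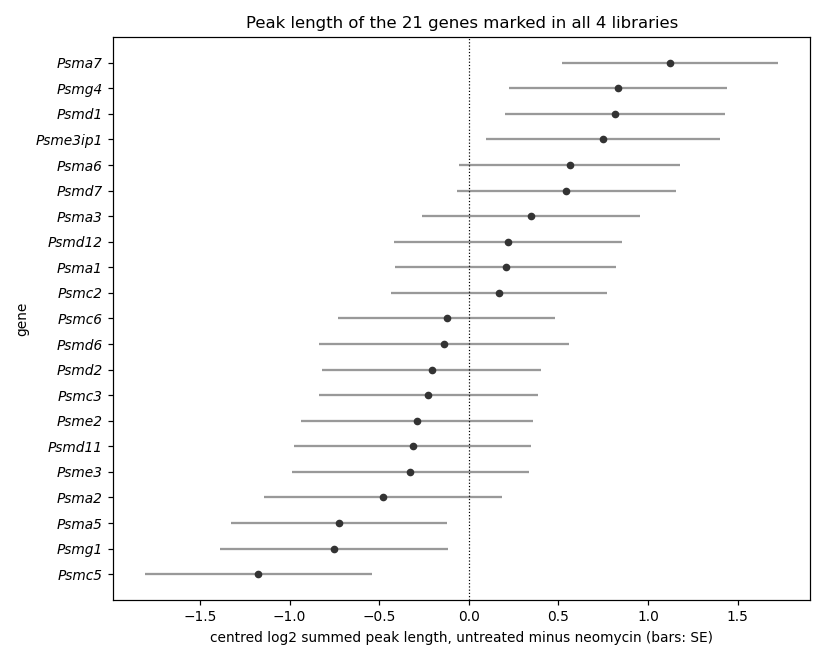
Difference in centred log2 summed peak length, untreated minus neomycin (horizontal axis; points are limma estimates and bars their SE), for the 21 genes marked in all 4 libraries (vertical axis). Psma7 at 1.12 and Psmc5 at −1.17 lie at the ends, and no gene passed the adjusted threshold.

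The peaks lay downstream of the start site and seldom across it. The summit of the strongest peak was a median of 211, 190, 172.5 and 218 bp downstream. It was downstream at 76.7%, 87.1%, 83.3% and 84.0% of the proteasome genes with a peak and a strand, beside 75.4%, 74.5%, 80.7% and 81.4% of all such genes. A peak covered the start itself at 3 of 30, 0 of 31, 2 of 36 and 4 of 25 of these genes. Among the 39 genes with a single start, 7.69%, 0.0%, 5.13% and 7.69% had a peak over it, beside 1.44%, 1.54%, 8.24% and 7.56% of all 14731 such genes. Coverage of the 39 genes was highest 200, 150, 225 and 250 bp downstream, where 15.4%, 41.0%, 69.2% and 46.2% of them had a peak. Over all 14731 genes with a single start the maxima were 6.93%, 13.0%, 33.3% and 24.3%. The position downstream is thus shared with other genes. The height of the maximum differed between the libraries, and what sets it was not tested.

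**Figure D5:**
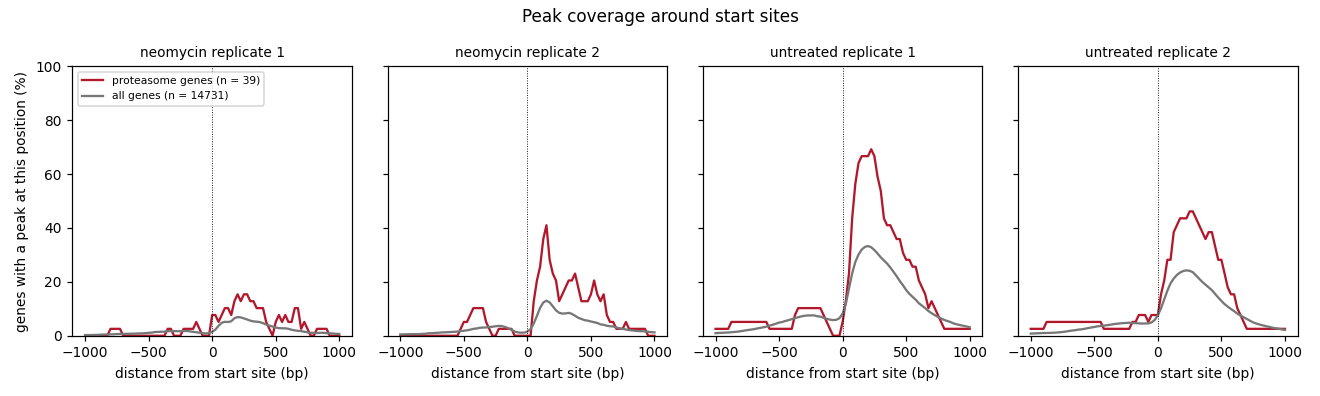
Percentage of genes with a peak (vertical axis) at each distance in bp from the start site (horizontal axis, positive in the direction of transcription), for 39 proteasome genes and 14731 genes in all, with 1 panel per library. The proteasome curve peaks between 150 and 250 bp downstream in each panel and is lowest in neomycin replicate 1, at 15.4%.

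Promoter sequences, in the windows that RefSeq gives around the start on GRCm38.p6, were available for 43 of the genes, in 47 windows. The nuclear respiratory factor motif, bound by the activator NRF1 of mitochondrial genes (a protein other than the Nrf1 above), was found in 7 of the 43 genes and 14.9% of windows, beside 6.38% of the 21263 windows of protein-coding genes and 4.60% of all 32851. Their sites are shown because these genes include 6 subunits of the core and regulatory particle, and capitals mark the match, on either strand and with 1 free base, as read on the strand of the gene: Psma2 chr13:14613105-14613134 (plus strand, 127 bp upstream of the start), Psma3 chr12:70974535-70974564 (plus, 78 bp), Psma4 chr9:54950788-54950817 (plus, 61 bp), Psmc4 chr7:28050242-28050271 (minus, 169 bp), Psmc5 chr11:106256126-106256155 (plus, 49 bp), Psmd14 chr2:61711604-61711633 (plus, 80 bp) and Psmg1 chr16:95990911-95990937 (minus, 33 bp downstream).
Psma2: ggcccctcttGCGCATGCGCaagggtcaaa
Psma3: tatggtttctGCGCACGCGCgctctctgct
Psma4: tcgcagtcctGCGCACGCGCgggagccata
Psmc4: aagagttactGCGCACGCGCaacatccttg
Psmc5: tttcgcctccGCGCCTGCGCgatagagtga
Psmd14: caggcggcctGCGCGTGCGCtgtgtgctcc
Psmg1: gcgggccggcGCGCATGCGCtgtctgg

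The other motifs differed less, as a ratio, from their share among coding windows. The antioxidant response element core TGANNNNGC was in 57.4% of the proteasome windows and 41.7% of coding windows, CCAAT in 34.0% and 38.2%, GGGCGG in 53.2% and 46.2%, and CACGTG in 10.6% and 7.84%. Both strands were searched; GGGCGG can overlap the antioxidant core, as it does before Psmb9. The ratio of observed to expected CpG, which is high in CpG islands, had a median of 0.734 in the proteasome windows and 0.567 in coding windows. It was 0.764 for the genes marked in all 4 libraries, 0.696 for those marked in fewer and 0.589 for those marked in 0 or 1. Psmb11 and Psme2b, marked in none, were low at 0.165 and 0.0904, while Psmb5, also marked in none, was at 0.999, and Psmd4 was at 0.508. A match is a description of letters and shows neither binding nor a cause.

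Among 37 genes of the pathway outside the symbol rule, 24, 17, 33 and 23 were marked, and 10 in all 4 libraries (16.6% of all genes were). Per library these are 64.9%, 45.9%, 89.2% and 62.2%, beside 34.8%, 33.6%, 47.0% and 36.3% of all genes. The proteasome genes had 68.6%, 68.6%, 84.3% and 56.9%, so marking above the share of all genes was not particular to them. Of 6 further proteasome genes, Adrm1 (Rpn13, a ubiquitin receptor), Akirin2 (which brings proteasomes into the nucleus) and Ecpas (a scaffold bound to the proteasome) were marked in all 4. Of 9 ubiquitin receptors and deubiquitinases 2 were, and of 9 genes for ubiquitin, its activating enzyme and the p97 segregase 4 were. No pathway gene was marked in the neomycin libraries alone (1.4% of all genes were), and 3 were in the untreated libraries alone (4.66%). Mafk, a small Maf partner of Nrf1, had 307 and 253 bp in the untreated libraries alone. Irf1, an interferon-responsive activator of immunoproteasome genes, had 691 and 582 bp there alone, and Tap2, a peptide transporter gene, 367 and 333 bp.

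The regulators of proteasome transcription were marked in 3, 3, 6 and 5 of 6 cases, beside 34.8%, 33.6%, 47.0% and 36.3% of all genes. Nfe2l1 (Nrf1) had no peak in neomycin replicate 1, 262 bp in neomycin replicate 2, and 394 and 702 bp in the untreated libraries. Ddi2, the protease that activates Nrf1, had no peak in neomycin replicate 1, 114 bp in neomycin replicate 2, and 768 and 263 bp in the untreated libraries. Ngly1, which strips sugars from Nrf1, was marked in all 4. Nfe2l2 (Nrf2, the oxidative stress factor) had 108 bp in neomycin replicate 1 and 397 bp in untreated replicate 1, and no peak in replicate 2 of either group. None of the 7 antigen presentation genes was marked in all 4 libraries (16.6% of all genes were). B2m, the light chain of class I molecules, had no peak in any.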

How the data were processed

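H3K4me3 was profiled in 2 neomycin and 2 untreated libraries, grouped by the labels. Peaks were listed per library. The submitters' processing notes name mm10 as the build and list CASAVA 1.4, Bowtie2, MACS2 and deepTools. What each tool did, and with which parameters, is not given in the sources used here. Each deposited peak, per the file headers, has a position, a length in bp, a pileup signal, a fold enrichment (a ratio) and −log10 p- and q-values, all computed by the authors' caller. They served to rank and filter the peaks of 1 list at a time. The members and lists were chosen with earlier results of these data known.

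A window of 1 kb either side of each start site counted as marked with at least 1 bp of overlap. Start sites came from the RefSeq promoter windows on GRCm38.p6 for 17492 genes. In 1714 of 1714 pairs of overlapping windows on opposite strands, the sequences were reverse complements. Genes without a strand used the gene end with peaks in more libraries. Of the pathway list, Paaf1 had no match in the annotation. Lengths were tested with limma 3.58.1 (R 4.3.3), and calls were made at p of 0.05 after Benjamini-Hochberg adjustment. Simulated data of 3638 genes with 200 changed served as a test of this step: it recovered 45% of changes of 2 on the log2 scale and 100% of changes of 4, and 5.23% of its calls were false. Tables and figures were made in Python 3.11.15 with numpy 2.4.6, pandas 2.3.3 and matplotlib 3.10.9.

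Every proteasome gene is named with its role. Values in each library are given for genes marked in both libraries of 1 group alone, for the immunoproteasome, activator and inhibitor genes, for the 5 largest length differences in each direction, for the 5 longest by mean, and for genes marked in 1 library or none. Alternatives covered the window, the q and length minimum, lists of equal length, centring, the longest peak, each library left out and a replicate block. Scans of 2 alternatives (the summit within the window; genes with a strand alone) were added after seeing the data. The input libraries were not used here.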

Additional observations from a re-analysis of the deposited data

How the results depend on the processing

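Of the counts recomputed under the alternatives, 97 stayed within 1.5 times of the reported count and 27 did not. Some of the 97 had no room to move, so they are no measure of stability. At −log10 q of at least 10 no gene was marked in every library, which kept the beta ring count at 0. The count of 1 library also cannot change when another is left out. With windows of 500 bp, 4 genes were marked in untreated alone (Psmb7, Psmd1, Psmd3 and Psme4; 6.31% of all genes). With −log10 q of at least 10, alpha ring genes and all proteasome genes marked in every library fell to 0 (0.0% of all genes), neomycin alone to 0 (0.00457%), untreated alone rose to 8 (6.66%), and the libraries (neomycin, then untreated) marked 0, 1, 25 and 10 genes (0.137%, 1.1%, 24.8% and 9.37% of all); few neomycin peaks of any gene reach that value. With at least 200 bp covered, 0 alpha ring genes and 2 proteasome genes were marked in every library (2.33% of all genes), 0 in neomycin alone (0.0731%) and 14 in untreated alone (17.9%), with 5 (5.94%) and 15 (15.9%) in neomycin replicates 1 and 2, as short peaks are removed. With lists of equal length, 2 genes were marked in untreated alone (5.05%), and with genes of known strand alone, 0 (4.53%), since Psmb7 has none; for these the cause was otherwise not tested.

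With 1 library left out, genes marked in every library ranged from 21 to 27, beside 17.4% to 23.1% of all genes. Beta ring genes so marked ranged from 0 to 2. Neomycin alone ranged from 1 to 7 (7 without untreated replicate 1, 5.91% of all genes), and untreated alone from 1 to 5 (5 without neomycin replicate 2, 10.3%). With fewer libraries each condition is easier to meet, so none of these counts could fall. For lengths with 1 library left out, 1 group is a single library, so only effect sizes are given. Without centring, 7 genes were longer in untreated, and the differences of Psmc5, Psmg1, Psma5, Psma2 and Psme3 turned to 0.41, 0.84, 0.86, 1.11 and 1.26; omitting the centring adds a constant of 1.59 to each gene, so these signs follow from the setting itself. With 1 library left out, Psmg1 ranged from −1.56 to 0.010 and Psma2 from −1.60 to 0.59, both above 0 without neomycin replicate 2. Psme3 ranged from −1.16 to 0.46, and was above 0 without neomycin replicate 1 (0.46) and without untreated replicate 1 (0.41). Psma6 was at −0.40 with the longest peak in place of the sum. None of these reversed values passed the adjusted threshold.

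The labels number replicates in each group, but same-numbered libraries did not deviate together (correlation of deviations −0.02 over 3638 genes). With the replicate number as a block, 0 proteasome genes were called in either direction, with a smallest limma adjusted p of 0.561. The comparison of lengths at −log10 q of at least 10 could not be fitted, as no gene was then marked in all 4 libraries. Depth is unknown, so an absent peak is a peak that was not called and not a measured absence of the mark.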
